A study of Mus musculus with 8 samples.

Results

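The matrix metalloproteinases (MMPs) and their tissue inhibitors (TIMPs) were described in hepatic macrophages through 10 genes chosen by name: *Mmp2*, *Mmp8*, *Mmp9*, *Mmp12*, *Mmp13*, *Mmp14*, *Mmp19*, *Timp1*, *Timp2* and *Timp3*. All 10 were found among the 55401 genes of the count table, and all 10 passed the filter on low values (at least 0.5 CPM, meaning counts relative to 1000000 counts of the library, in at least 1 library). The macrophages were taken with an F4/80 antibody on magnetic columns from normal livers (WT mice on a standard diet) or from steatotic livers (MC4R-KO mice, which lack the melanocortin 4 receptor, fed a Western diet over 6 to 10 weeks), both on the C57BL/6J background. They were cultured on collagen-coated plastic and given vehicle (Veh) or cholesterol crystals (CC, 500 µg/ml) for 24 h. This gave 4 groups of 2 libraries, 8 in all. The knockout is of the whole animal, genotype and diet changed together and cannot be told apart, and the sources used here do not say how many mice stand behind a library, so the spread between the libraries of a group may be technical. The study's methods describe male mice that were 8 weeks old when a longer Western diet began, with no separate age for these cultures.

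MMPs are zinc-dependent endopeptidases that cut collagens, elastin and other proteins of the extracellular matrix. Most are secreted as inactive proenzymes, which other proteases activate, and TIMPs bind the active site of the mature enzymes and block it. In the liver the balance between these enzymes and inhibitors is known to bear on the build-up and resolution of fibrotic scar, and macrophages are a known source of several of the enzymes. Transcript levels, which are what was measured here, do not give the activity of the proteins.

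The libraries held 58668655 to 74529462 counts, and the replicates of a group correlated at 0.979 to 0.982 (Pearson's r of log2 CPM across genes, which are not independent replicates). The knocked-out gene *Mc4r* had 22 to 72 counts in the 4 libraries labelled steatotic and 0 counts in all 4 labelled normal. A complete loss of its transcript would leave 0 counts in the libraries of the knockout, whereas a disrupted allele can still give reads on its gene. Counts of 0 in the normal libraries show only that the gene was not detected there. The origin of the reads was not tested, so normal and steatotic below mean the libraries with those labels. The 7 macrophage markers summed to 15274 to 15794 CPM in normal libraries with Veh, 12293 to 12449 with CC, 11286 to 11470 in steatotic libraries with Veh and 9703 to 10624 with CC, and CC lowered 5 and raised 0 of the 7 in normal macrophages (5.54% and 6.27% of all genes tested; 0 raised also at an unadjusted edgeR p under 0.05 and by DESeq2) and lowered 4 and raised 1 in steatotic macrophages (10.9% and 12.0%). With Veh 4 of the 7 were higher and 2 lower in steatotic libraries (16.4% and 14.3% of all genes). *Lyz2* (lysozyme), the largest part of the sum, stood at 8228 and 7908 CPM in normal and 3429 and 3591 CPM in steatotic libraries with Veh, and *Adgre1* (F4/80) at 1062 and 1087 against 1739 and 1730 CPM. Among the markers of other cells, the 8 genes of T and natural killer cells were under 0.5 CPM in every normal library and so were tested only through the steatotic ones (summed level 0.580 to 0.997 CPM in normal and 14.3 to 18.8 CPM in steatotic libraries), and of the 12 hepatocyte genes 10 were tested, of which 6 were lower in steatotic libraries with Veh and 8 with CC, where 1 (*Hp*, haptoglobin) was higher (14.3% and 12.9% of all genes tested were called lower, and 15.9% higher with CC). Of the 10 endothelial markers 9 were tested and 4 were higher and 1 lower in steatotic libraries, both with Veh (16.4% and 14.3% of all genes) and with CC (15.9% and 12.9%; summed level 159.0 to 195.5 CPM in normal and 243.8 to 269.0 CPM in steatotic libraries). They did not move together: *Pecam1* stood at 25.5 and 26.6 CPM in normal and 96.1 and 94.3 CPM in steatotic libraries with Veh and at 22.2 and 25.0 against 35.5 and 40.7 CPM with CC, and *Stab2* at 24.8 and 26.5 against 19.4 and 20.2 CPM with Veh. *Alb* (albumin) stood at 41.0 to 49.4 CPM in normal and 1.24 to 2.31 CPM in steatotic libraries, while *Trf* (transferrin), at 45.9 to 117.7 CPM in all, carried most of the summed level of 57.2 to 165.5 CPM. In bulk RNA of this kind, fewer cells of a type and less RNA per cell cannot be told apart, and the part of these cells in the results was not tested.

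Each of the 10 genes except *Mmp2* changed in at least 1 comparison. With Veh, 6 genes were higher and 2 lower in steatotic than in normal macrophages (edgeR quasi-likelihood test, Benjamini-Hochberg adjusted p under 0.05 over all 15202 genes tested). Of all genes tested, 16.4% were called higher and 14.3% lower in that comparison. CC raised 6 genes and lowered 1 in normal macrophages, against 6.27% and 5.54% of all genes tested, and raised 5 and lowered 1 in steatotic macrophages, against 12.0% and 10.9%. With CC in both, 6 genes were higher and 3 lower in steatotic macrophages, where 15.9% and 12.9% of all genes tested were called. The responses to CC themselves differed for 5 genes, 4 with a larger and 1 with a smaller value in steatotic macrophages, against 1.95% and 1.27% of all genes. The median log2 fold change of the 10 genes was 0.38, 0.53, 0.55 and 0.65 in the first 4 comparisons and 0.48 for the difference between responses, while the median of all genes tested lay between -0.010 and 0.0053. The comparisons share groups, since each group enters several of them, so they are not independent.

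**Figure D1:**
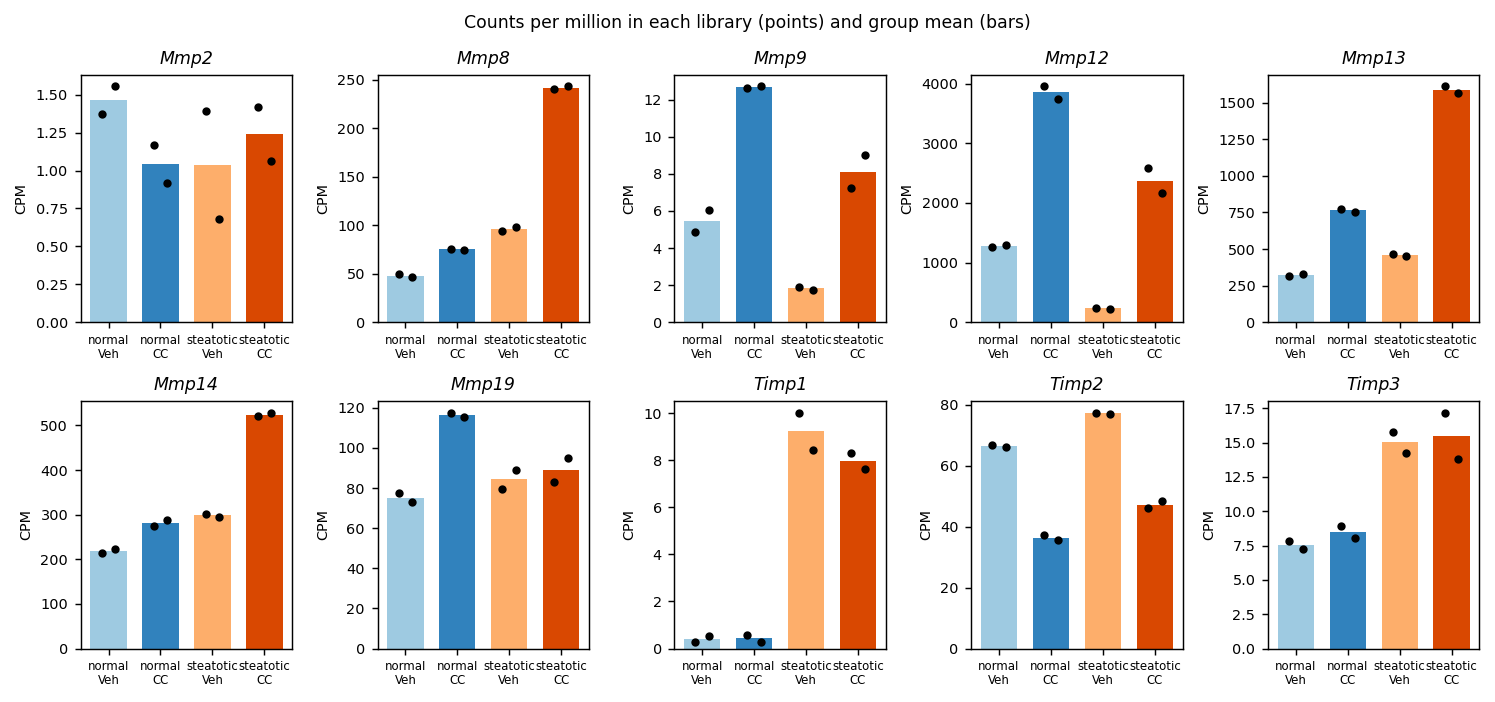
Level of each of the 10 genes in CPM (linear axis from 0) in the 4 groups, with 1 point per library and bars at the mean of the 2 libraries of a group. *Mmp12* and *Mmp9* are lowest in steatotic macrophages with Veh, *Mmp8*, *Mmp13* and *Mmp14* are highest in steatotic macrophages with CC, *Timp1* is under 0.6 CPM in every normal library, and *Timp2* is lower with CC in both.

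*Mmp12*, the macrophage metalloelastase, cuts elastin and is made mainly by macrophages. The gene is ENSMUSG00000049723.14 of the table, at chr9:7344381-7369499 in GRCm38, the genome build also called mm10 and used for all positions here. In normal macrophages it stood at 1267 and 1289 CPM with Veh and at 3957 and 3750 CPM with CC. In steatotic macrophages it stood at 247.2 and 229.8 CPM with Veh and at 2580 and 2161 CPM with CC. No 2 groups overlapped, and the level with Veh was far lower in the steatotic than in the normal libraries while the levels with CC lay closer together. The log2 fold change between the livers with Veh was -2.38 ± 0.0902 (SE; edgeR adjusted p = 8.8e-06), a level 5.19-fold lower in steatotic macrophages. CC raised *Mmp12* by 1.63 ± 0.0878 on the log2 scale (3.09-fold; edgeR adjusted p = 0.000152) in normal and by 3.33 ± 0.0938 (10.1-fold; edgeR adjusted p = 4.3e-06) in steatotic macrophages. The response was larger in steatotic macrophages by 1.70 on the log2 scale (95% interval 1.41 to 2.0; edgeR adjusted p = 0.0024), and the level with CC nevertheless remained lower there (log2 fold change -0.67 ± 0.0860; edgeR adjusted p = 0.0019). CC thus brought the steatotic libraries above the normal ones with Veh. Per kb of exon, *Mmp12* ranked 74 and 76 among all genes of the table in the normal libraries with CC, and 1630 and 1738 in the steatotic libraries with Veh. By counts, without division by length, the ranks were 18 and 18, and 753 and 804, in the same libraries.

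*Mmp13* (ENSMUSG00000050578.10, chr9:7272514-7283331), the main interstitial collagenase of rodents, cuts fibrillar collagen. Its level in normal macrophages was 319.3 and 327.5 CPM with Veh and 775.2 and 754.3 CPM with CC. Its level in steatotic macrophages was 466.7 and 454.9 CPM with Veh and 1612 and 1564 CPM with CC. Unlike *Mmp12*, it was higher in the steatotic libraries both with Veh (log2 fold change 0.56 ± 0.0355; edgeR adjusted p = 2.3e-05) and with CC (1.08 ± 0.0357; edgeR adjusted p = 1.3e-06). CC raised it by 1.28 ± 0.0359 on the log2 scale (2.43-fold; edgeR adjusted p = 9.4e-06) in normal and by 1.80 ± 0.0364 (3.49-fold; edgeR adjusted p = 3.3e-07) in steatotic macrophages. These responses differed by 0.52 (95% interval 0.41 to 0.64; edgeR adjusted p = 0.0029).

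*Mmp8* (ENSMUSG00000005800.3, chr9:7558456-7568485), also a collagenase, is known as the neutrophil collagenase because neutrophils store it in granules. It stood at 50.1 and 46.4 CPM in normal libraries with Veh, 75.8 and 74.5 CPM with CC, 94.1 and 98.0 CPM in steatotic libraries with Veh, and 240.6 and 243.4 CPM with CC. The 4 groups were fully separated, each step larger than the spread within a group. *Mmp8* was higher in steatotic macrophages by 1.04 ± 0.0499 on the log2 scale with Veh (edgeR adjusted p = 5.9e-06) and by 1.71 ± 0.0505 with CC (edgeR adjusted p = 9.4e-07). CC raised it by 0.68 ± 0.0497 (1.60-fold; edgeR adjusted p = 0.000182) in normal and by 1.35 ± 0.050 (2.55-fold; edgeR adjusted p = 3.2e-06) in steatotic macrophages, a difference of 0.67 (95% interval 0.51 to 0.84; edgeR adjusted p = 0.0041). Of 11 neutrophil markers, 9 stayed under 0.5 CPM in every library and *Ly6g*, a defining one, had 0 counts in all 8. Of the others, *Csf3r*, which macrophages also express, stood at 81.1 and 81.3 CPM in normal libraries with Veh, 59.2 and 61.6 CPM with CC, 149.5 and 156.0 CPM in steatotic libraries with Veh, and 125.4 and 127.2 CPM with CC. *S100a8* stood at 9.08 and 9.94, 14.9 and 14.4, 5.44 and 4.29, and 18.4 and 19.2 CPM in the same order. *Csf3r* thus stood higher in the steatotic libraries, as *Mmp8* did, but lower with CC, where *Mmp8* was higher. *S100a8* stood higher with CC, as *Mmp8* did, but lower in steatotic than in normal libraries with Veh, where *Mmp8* was higher. The part of neutrophils in the level of *Mmp8* was not tested.

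*Mmp13*, *Mmp12* and *Mmp8* lie in 1 cluster of 10 MMP genes on mouse chromosome 9 (chr9:7272514-7699585). Their promoters are shown because 2 of the 3 genes that share this cluster hold the site of AP-1, a transcription factor of Jun and Fos proteins, close to a transcription start, and because the same letters recur across the cluster. The letters searched were TGAGTCA on both strands, in the stretch from 250 bases before to 50 bases after each RefSeq start (GRCm38.p6). They occur in 5.20% of all 32851 promoter entries. The lines below give the last 100 bases before the start, 5′ to 3′ on the strand of the gene, with the AP-1 letters in capitals. All 4 genes shown lie on the plus strand, and the stretches are chr9:7272414-7272513 for *Mmp13*, chr9:7347274-7347373 for *Mmp12*, chr9:7502242-7502341 for *Mmp10* and chr9:7558329-7558428 for *Mmp8*.
Mmp13: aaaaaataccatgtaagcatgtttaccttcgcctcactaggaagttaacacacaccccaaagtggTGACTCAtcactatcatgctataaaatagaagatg
Mmp12: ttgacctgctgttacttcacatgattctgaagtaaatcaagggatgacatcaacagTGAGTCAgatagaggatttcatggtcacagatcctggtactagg
Mmp10: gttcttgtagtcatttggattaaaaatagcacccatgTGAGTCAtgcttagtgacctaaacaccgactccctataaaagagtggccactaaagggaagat
Mmp8: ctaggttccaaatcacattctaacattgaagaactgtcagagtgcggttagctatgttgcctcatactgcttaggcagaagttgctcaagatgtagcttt
In *Mmp13* the site starts 35 bases before the transcription start and is read from the other strand. In *Mmp12* it starts 44 bases before the second of its 2 RefSeq starts, within 50 bp of which 5 of its 7 annotated transcripts begin, and the first start has no match. In *Mmp10* it starts 63 bases before the start, and the *Mmp8* entry has no match. Of the 7 members with a promoter entry, *Mmp12* and *Mmp13* were the 2 with a match. Among the 10 genes of the cluster, 7 had a match (the others were *Mmp1a*, *Mmp1b*, *Mmp3* and *Mmp7*), and none of the 12 MMP and TIMP genes outside the cluster with an entry had one. The letters of the EGR1 site (GCGTGGGCG, in 0.612% of all entries) and of the CLEAR core bound by TFE3 and its relatives (CACGTG, in 7.15%) occurred in no entry of the 10 members.

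Cluster genes with and without these letters were found both at high levels and at 0. *Mmp1a* and *Mmp1b*, each with a match, had 0 counts in all 8 libraries, and so did *Mmp20*, which had none. *Mmp3* (stromelysin 1) and *Mmp7* (matrilysin), both with a match, had at most 32 and 9 counts in any library. *Mmp27*, without a match, stood at 63.7 and 62.7 CPM in normal libraries with Veh and rose to 132.2 and 138.2 CPM in steatotic libraries with CC. It changed with CC in normal macrophages (log2 fold change 0.34, edgeR adjusted p = 0.0023) and in steatotic macrophages (0.47, edgeR adjusted p = 0.000189), and was higher in steatotic macrophages with Veh (0.69, edgeR adjusted p = 2.2e-05) and with CC (0.82, edgeR adjusted p = 1e-05).

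*Mmp10*, stromelysin 2, showed the largest CC response of any MMP tested in steatotic macrophages, from a low level. It stood at 0.397 and 0.725 CPM in normal libraries with Veh, 1.38 and 1.41 CPM with CC, 0.234 and 0.272 CPM in steatotic libraries with Veh, and 4.24 and 4.37 CPM with CC. The lowest of these are near the depth limit, as 3 sequenced fragments correspond to about 0.161 to 0.205 CPM. CC raised it by 1.35 ± 0.306 on the log2 scale (edgeR adjusted p = 0.0284) in normal and by 4.09 ± 0.335 (edgeR adjusted p = 0.00011) in steatotic macrophages, a difference of 2.74 (95% interval 1.71 to 3.78; edgeR adjusted p = 0.0189). Like *Mmp12*, it was lower in steatotic macrophages with Veh (-1.09 ± 0.337; edgeR adjusted p = 0.0432), but with CC it was higher there (1.65 ± 0.290; edgeR adjusted p = 0.0045). Over all alternatives the log2 fold change with Veh ranged from -1.47 to -0.60, the latter without normal library 2 with Veh. The call with Veh was lost with DESeq2 (adjusted p = 0.0640), with counts divided by 4 (0.129), with the 4 libraries of the comparison alone (0.204), with the replicate number as a block (0.0505) and on leaving out any library except normal library 1 with Veh (0.0613 to 0.230), where all alternatives began at 0.0124. The call of the difference between responses was lost on leaving out any of the libraries except the 2 normal ones with Veh (0.0591 to 0.0694, with all alternatives from 0.000399), and that with CC in normal macrophages with the 4 libraries of the comparison alone (0.0973) and on leaving out any except normal library 2 with Veh and the steatotic ones with Veh (0.0568 to 0.0975, with all alternatives from 0.0117). Of the 17 genes that were the other MMPs and *Timp4*, 3 passed the filter (*Mmp10*, *Mmp25* and *Mmp27*) and 5 had 0 counts in every library.

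**Figure D2:**
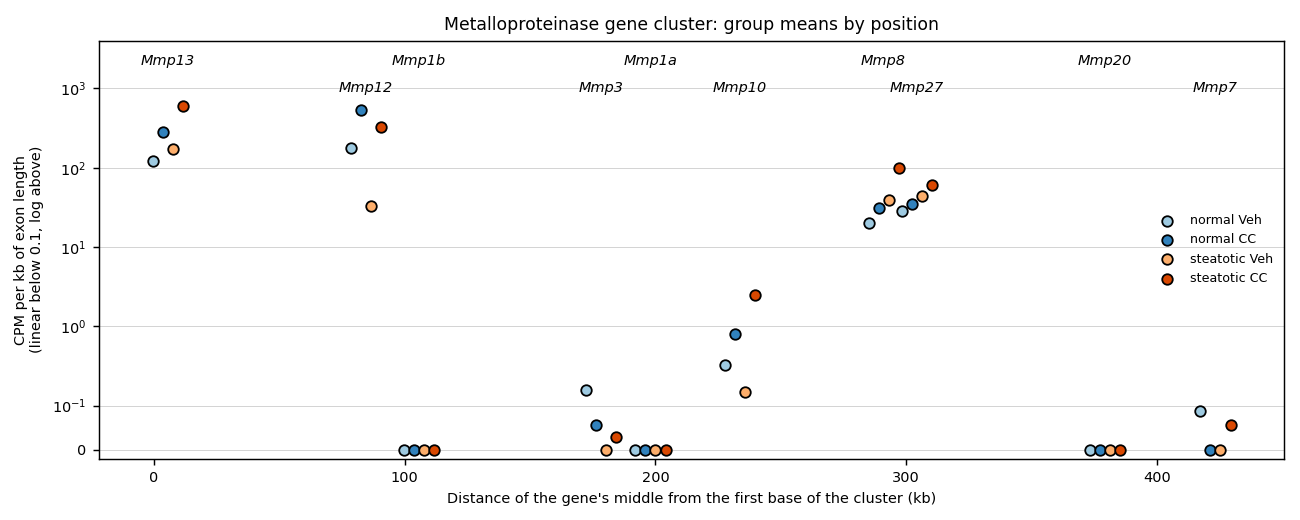
Mean level of the 10 genes of the chromosome 9 cluster in CPM per kb of exon length (linear below 0.1, log scale above), against the distance of the middle of each gene from the first base of the cluster in kb. Each gene has 4 points, 1 per group and shifted sideways for legibility. *Mmp13*, *Mmp12*, *Mmp8* and *Mmp27* lie above 10 CPM per kb in every group, *Mmp10* spans from 0.15 to 2.50, and the remaining 5 genes lie near or at 0.

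*Mmp14* (ENSMUSG00000000957.11, chr14:54431612-54445364) encodes MT1-MMP, a membrane-bound collagenase that also activates pro-MMP2 at the cell surface. Its levels were 214.6 and 223.6 CPM in normal libraries with Veh, 274.8 and 287.9 CPM with CC, 301.0 and 295.6 CPM in steatotic libraries with Veh, and 520.1 and 528.6 CPM with CC. The order of the groups was that of *Mmp8*, and again no groups overlapped. It was higher in steatotic macrophages by 0.49 ± 0.0400 on the log2 scale with Veh (edgeR adjusted p = 8.1e-05) and by 0.92 ± 0.0402 with CC (edgeR adjusted p = 3.9e-06). CC raised it by 0.40 ± 0.0400 (edgeR adjusted p = 0.000783) in normal and 0.83 ± 0.0401 (edgeR adjusted p = 9.4e-06) in steatotic macrophages, which differed by 0.43 (95% interval 0.30 to 0.57; edgeR adjusted p = 0.0082).

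*Mmp19* (ENSMUSG00000025355.7, chr10:128790910-128800824), a secreted MMP expressed by several cell types, was the 1 member called with a smaller CC response in steatotic macrophages. It stood at 77.5 and 72.9 CPM in normal libraries with Veh and 117.6 and 115.3 CPM with CC, and at 79.5 and 89.3 CPM in steatotic libraries with Veh and 83.2 and 94.9 CPM with CC. The normal libraries with CC stood above all others, and the steatotic groups overlapped. CC raised *Mmp19* by 0.67 ± 0.0786 on the log2 scale in normal macrophages (edgeR adjusted p = 0.0016), and in steatotic macrophages the log2 fold change was 0.09 (95% interval -0.09 to 0.28; edgeR adjusted p = 0.46). The difference between the responses was -0.57 (95% interval -0.83 to -0.31; edgeR adjusted p = 0.0388). This call was lost with the replicate number as a block (edgeR adjusted p = 0.0571). It was also lost on leaving out either normal library with Veh, either normal library with CC, steatotic library 2 with Veh or steatotic library 1 with CC. Over all alternatives the difference ranged from -0.67 to -0.48. With CC the level was lower in steatotic than in normal macrophages (-0.36 ± 0.0783; edgeR adjusted p = 0.0115), a call lost without normal library 1 (0.0577) or steatotic library 1 (0.0583) with CC, the highest of a range from 0.0011. *Mmp19* shares 789 bp of exon with *Tmem198b* on the opposite strand (335 to 590 counts), and whether the authors counted by strand is not given in the sources used here.

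The gelatinases *Mmp9* (ENSMUSG00000017737.2, chr2:164940780-164955850) and *Mmp2* (ENSMUSG00000031740.8, chr8:92827291-92853420) cut denatured collagen and the type IV collagen of basement membranes, and both were low. *Mmp9* stood at 4.87 and 6.02 CPM in normal libraries with Veh, 12.6 and 12.7 CPM with CC, 1.92 and 1.73 CPM in steatotic libraries with Veh, and 7.21 and 9.03 CPM with CC. The groups did not overlap, and their order was the one seen for *Mmp12*. *Mmp9* was lower in steatotic macrophages with Veh by -1.53 ± 0.169 on the log2 scale (2.90-fold; edgeR adjusted p = 0.000381). CC raised it by 1.25 ± 0.162 (2.39-fold; edgeR adjusted p = 0.0025) in normal and by 2.17 ± 0.170 (4.51-fold; edgeR adjusted p = 9.2e-05) in steatotic macrophages. This brought the steatotic libraries above the normal ones with Veh. The difference between these responses, 0.92 (95% interval 0.38 to 1.46), did not pass the threshold (edgeR adjusted p = 0.0942), though it did with no filter on low counts (0.0491, the lowest of a range up to 0.25). With CC it was lower in steatotic macrophages (-0.62 ± 0.159; edgeR adjusted p = 0.0238), a call lost without normal library 1 (0.0840), normal library 2 (0.0866) or steatotic library 1 (0.120) with CC, where the lowest of all alternatives was 0.0117.

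*Mmp2* ranged from 0.680 to 1.56 CPM (50 to 103 counts) over the 8 libraries. It passed the test in none of the 5 comparisons. Its log2 fold changes lay between -0.46 and 0.73, with wide intervals such as -1.35 to 0.43 for steatotic against normal with Veh.

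The 3 TIMPs differed in pattern. *Timp1* (ENSMUSG00000001131.11, chrX:20870166-20874735), an inhibitor induced in injured liver and known from stellate cells as well as macrophages, stood at 0.297 and 0.513 CPM in normal libraries with Veh, 0.593 and 0.273 CPM with CC, 10.0 and 8.45 CPM in steatotic libraries with Veh, and 8.31 and 7.64 CPM with CC. All 4 steatotic libraries were above all 4 normal ones, which held only 16 to 37 counts each. The log2 fold change between the livers was 4.55 ± 0.371 with Veh (23.5-fold; edgeR adjusted p = 9.7e-05) and 4.22 ± 0.369 with CC (18.6-fold; edgeR adjusted p = 0.00017), the largest of the 10 genes. Without normal library 1 with CC the latter was 4.88, and over all alternatives it ranged from 3.77 to 4.88. CC gave a log2 fold change of 0.14 (95% interval -0.80 to 1.08) in normal and -0.20 (95% interval -0.90 to 0.51) in steatotic macrophages, neither past the threshold. *Timp1* lies within *Syn1*, a gene on the opposite strand with which it shares no exon bases and which had 5653 to 8267 counts.

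*Timp3* (ENSMUSG00000020044.13, chr10:86300372-86349506), which binds to the extracellular matrix and also inhibits ADAM17, followed a like pattern with a smaller step. It stood at 7.86 and 7.23 CPM in normal libraries with Veh, 8.96 and 8.08 CPM with CC, 15.8 and 14.3 CPM in steatotic libraries with Veh, and 17.2 and 13.8 CPM with CC. It was higher in steatotic macrophages by 1.04 ± 0.135 on the log2 scale with Veh (edgeR adjusted p = 0.000894) and by 0.89 ± 0.134 with CC (edgeR adjusted p = 0.0022). CC gave 0.21 (95% interval -0.10 to 0.53) in normal and 0.06 (95% interval -0.25 to 0.37) in steatotic macrophages, neither past the threshold. Its exons overlap those of *Syn3* on the other strand by 1733 bp, and *Syn3* had 0 to 24 counts.

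Stellate cells and fibroblasts are known sources of *Timp1* and *Timp3*. Of their 13 markers, 5 were tested, of which 3 were higher and 0 lower in steatotic libraries both with Veh (16.4% and 14.3% of all genes) and with CC (15.9% and 12.9%), by edgeR, at an unadjusted p under 0.05 and by DESeq2. The other 8 stayed under 0.5 CPM in every library, among them *Col1a1*, *Col3a1*, *Lrat* and *Des*, the last at 0 in all 4 steatotic libraries and at most 0.0992 CPM in a normal one. Their summed level ranged from 6.27 to 7.16 CPM in normal libraries with Veh, 10.0 to 12.8 CPM with CC, 29.5 to 31.4 CPM in steatotic libraries with Veh and 118.2 to 147.3 CPM with CC. *Dcn* (decorin) stood at 2.14 and 2.07, 7.0 and 5.69, 20.8 and 17.4, and 135.0 and 107.9 CPM in the same order. *Bgn* (biglycan) ranged from 0.920 to 1.25 CPM in normal libraries and stood at 6.66 and 6.88 CPM in steatotic libraries with Veh and 5.69 and 5.78 CPM with CC, and *Tagln* (transgelin) ranged from 0.510 to 1.33 CPM in normal and from 1.92 to 3.78 CPM in steatotic libraries. As with *Timp1* and *Timp3*, all 4 steatotic libraries stood above all 4 normal ones for *Bgn* and *Tagln*. The other 2 tested did not follow: *Acta2* (smooth muscle actin) stood at 1.15 and 1.45 CPM in normal and 0.834 and 1.05 CPM in steatotic libraries with Veh, and at 1.84 and 1.52 against 1.51 and 1.36 CPM with CC, and *Pdgfra* at 0.142 and 0.393 against 0.337 and 0.149 CPM with Veh and 0.833 and 0.409 against 0.213 and 0.295 CPM with CC. The part of these cells in the levels of *Timp1* and *Timp3* was not tested.

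*Timp2* (ENSMUSG00000017466.9, chr11:118301069-118355740), which inhibits most MMPs and takes part with MT1-MMP in the activation of pro-MMP2, was the member that CC lowered. It fell from 66.9 and 65.9 CPM to 37.1 and 35.6 CPM in normal libraries, and from 77.4 and 76.8 CPM to 46.1 and 48.4 CPM in steatotic libraries. The log2 fold change with CC was -0.83 ± 0.0504 (edgeR adjusted p = 9.1e-05) in normal and -0.69 ± 0.0501 (edgeR adjusted p = 6.3e-05) in steatotic macrophages. The difference between the responses was 0.14 (95% interval -0.02 to 0.31; edgeR adjusted p = 0.44) and did not pass the threshold. *Timp2* was slightly higher in steatotic macrophages with Veh (0.26 ± 0.0498; edgeR adjusted p = 0.0060) and with CC (0.40 ± 0.0502; edgeR adjusted p = 0.000863). Of 5 markers of Kupffer cells, the resident macrophages of the liver, CC lowered 3 and raised 0 in normal macrophages (5.54% and 6.27% of all genes; 0 raised also at an unadjusted edgeR p under 0.05 and by DESeq2) and lowered 4 and raised 1 in steatotic macrophages (10.9% and 12.0%). *Vsig4* had the largest fall and went from 335.1 and 302.1 to 62.8 and 66.7 CPM in normal libraries and from 569.9 and 604.7 to 82.1 and 89.5 CPM in steatotic libraries. *Marco* stood at 357.2 and 375.4 CPM with Veh and 392.3 and 430.5 CPM with CC in normal libraries, and at 95.2 and 90.5 against 127.5 and 172.8 CPM in steatotic libraries. The part of these cells in the level of *Timp2* was not tested.

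**Figure D3:**
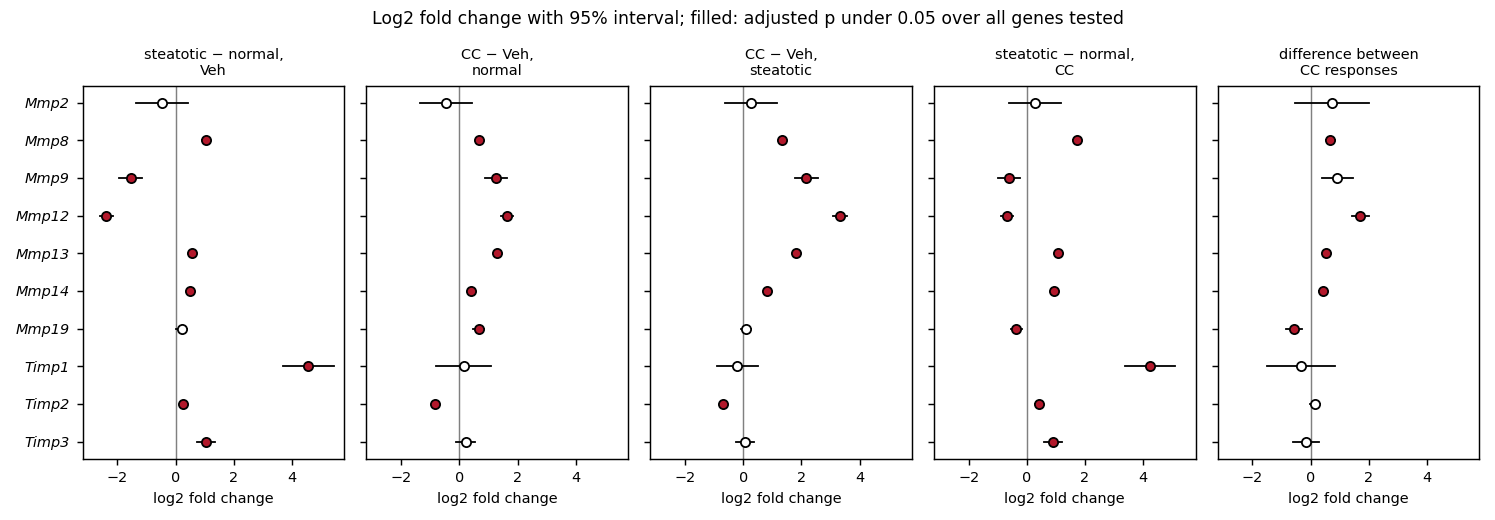
Log2 fold change of the 10 genes in the 4 comparisons and the difference between the CC responses, with 95% intervals as lines. Filled points passed an adjusted p of 0.05 over all genes tested. *Timp1* has the largest value between the livers (4.55 with Veh), *Mmp12* the largest CC response in steatotic macrophages (3.33) and the largest difference between responses (1.70), and the intervals of *Mmp2* span 0 in every panel.

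Levels of different genes were compared per length, as CPM per kb of exon. In normal macrophages with Veh the order was *Mmp12* (176.5 CPM per kb), *Mmp13* (121.0), *Mmp14* (36.8), *Mmp19* (21.3), *Mmp8* (19.9), *Timp2* (17.0), *Mmp9* (1.54), *Timp3* (0.927), *Timp1* (0.457) and *Mmp2* (0.434). The libraries of *Mmp19* and *Mmp8*, and of *Timp1* and *Mmp2*, overlapped, and the other neighbours did not. With CC the order was the same, with *Mmp12* at 532.4 and *Mmp13* at 286.1 CPM per kb, and *Timp1* and *Mmp2* overlapped. In steatotic macrophages with Veh *Mmp13* came first (172.4 CPM per kb), followed by *Mmp14* (50.04), *Mmp8* (39.6) and *Mmp12* (33.0), and *Timp1* (10.4) stood behind *Timp2* (19.8), with no neighbours overlapping. With CC in steatotic macrophages *Mmp13* (594.1 CPM per kb) again came first, then *Mmp12* (327.6), *Mmp8* (99.8) and *Mmp14* (88.0), and here *Mmp9* (2.29) and *Timp3* (1.90) overlapped.

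Per kb, *Mmp12* thus came first in normal and *Mmp13* in steatotic macrophages, an order that with CC rests on the exon lengths used (7237 bp for *Mmp12* and 2673 bp for *Mmp13*). In CPM, without division by length, *Mmp13* was above *Mmp12* in steatotic libraries with Veh (466.7 and 454.9 against 247.2 and 229.8 CPM), but below it with CC (1612 and 1564 against 2580 and 2161 CPM). Per kb, *Mmp12* made up 46.7% and 46.9% of the summed level of the 7 MMPs in normal libraries with Veh and 57.5% and 56.6% with CC. In steatotic libraries it made up 10.6% and 10.0% with Veh and 30.4% and 27.1% with CC. *Mmp13* made up 30.5% to 32.2% in the 4 normal and 51.5% to 54.3% in the 4 steatotic libraries. The ratio of *Mmp13* to *Mmp12* per length was 0.530 to 0.688 in normal libraries, 5.11 and 5.36 in steatotic libraries with Veh, and 1.69 and 1.96 with CC. These shares repeat the gene levels above in another form and were given no test.

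The summed level of the 7 MMPs with Veh was 374.9 and 380.0 CPM per kb in normal and 321.5 and 317.9 in steatotic libraries. With CC the sum was 951.3 and 915.9 CPM per kb in normal and 1172 and 1103 in steatotic libraries. Leaving out *Mmp12*, the sums with Veh were 199.8 and 202.0 in normal and 287.4 and 286.1 in steatotic libraries, the opposite order. All these sums and the ratios below rest on the exon lengths used. Without division by length, the 10 genes made up 0.201% and 0.204% of counts in normal libraries with Veh. In steatotic libraries with Veh they made up 0.129% and 0.127%. With CC the shares were 0.526% and 0.504% in normal and 0.512% and 0.467% in steatotic libraries. The 3 TIMPs summed to 18.5 and 18.4 CPM per kb in normal libraries with Veh, 11.3 and 10.4 with CC, 33.1 and 31.0 in steatotic libraries with Veh, and 23.3 and 22.7 with CC. The MMP sum was therefore 20.3 and 20.7 times the TIMP sum in normal libraries with Veh and 84.3 and 87.7 times with CC, and 9.72 and 10.3 times in steatotic libraries with Veh and 50.3 and 48.6 times with CC. Without *Mmp12* these ratios were 10.8 and 10.98, 35.8 and 38.1, 8.68 and 9.23, and 35.0 and 35.4 in the same order, so that the libraries of both livers with CC came close together. *Timp1* made up 1.81% to 5.91% of the TIMP sum in the 4 normal and 30.7% to 40.2% in the 4 steatotic libraries. Transcript ratios of this kind are not ratios of proteins.

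**Figure D4:**
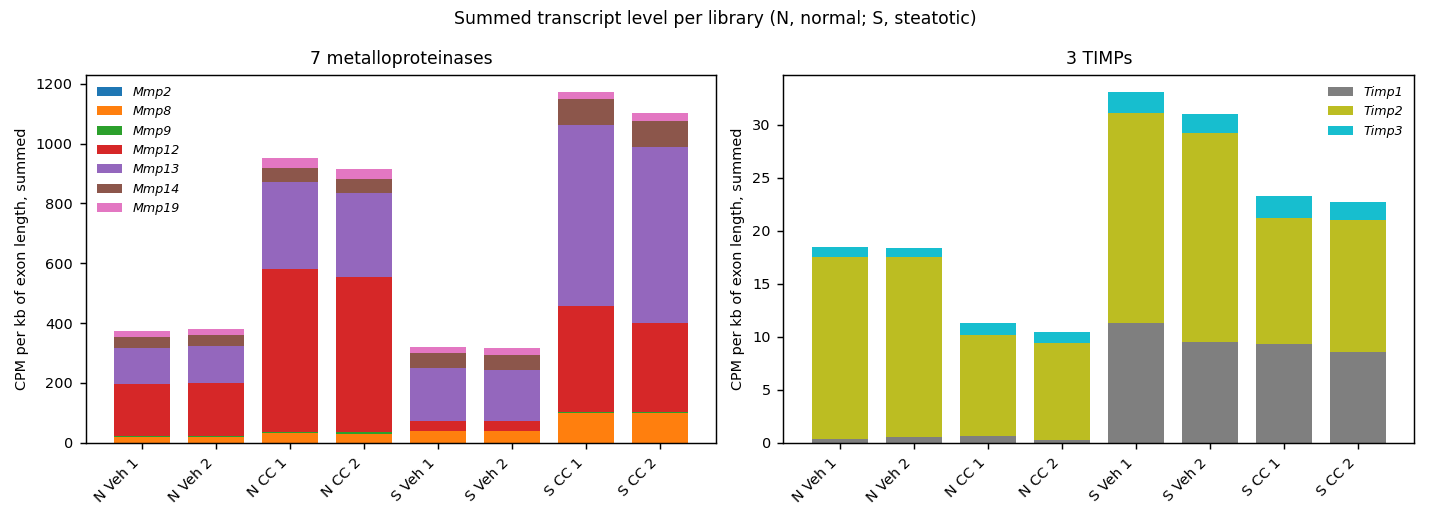
Summed level in CPM per kb of exon length in each of the 8 libraries (N, normal; S, steatotic), stacked by gene, for the 7 MMPs (left) and the 3 TIMPs (right); both axes start at 0 and differ in scale. Per kb, *Mmp12* is the largest part in the normal libraries and *Mmp13* in the steatotic ones (with CC not so in CPM), and *Timp1* is visible as a large part only in the steatotic libraries.

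The members fell into sets with like profiles over the 8 libraries, which share the 4 groups, so the values describe the group means. Pearson's r of log2 CPM was 0.9879 between *Mmp9* and *Mmp12*, 0.9931 between *Mmp8* and *Mmp14*, 0.9311 between *Mmp13* and *Mmp14* and 0.9648 between *Timp1* and *Timp3*. It was -0.9220 between *Mmp12* and *Timp2*. Among 9988 other genes with a mean of at least 5 CPM, the profile most like that of *Mmp12* was that of *Pmp22* (r = 0.9990), a membrane protein known from myelin, followed by *Kif1c* (0.9984), a kinesin motor. The nearest to *Mmp8* were *Ctsk* (0.9974), the collagen-cutting cathepsin K, and *Gpc1* (0.9965), a glypican. *Ctsk* had mean levels of 8.60, 15.3, 20.4 and 54.7 CPM in normal Veh, normal CC, steatotic Veh and steatotic CC. The nearest to *Mmp13* were *Slc25a43* (0.9980) and *Tnfrsf1b* (0.9965), a receptor of TNF, and to *Mmp9* *Gpr84* (0.9932), a receptor of medium-chain fatty acids, and *Ghitm* (0.9926). An r says nothing of size: *Slc25a43* ranged only from 9.96 to 14.2 CPM in its group means.

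Genes that activate MMPs or hold them in check, with some related matrix genes such as *Emilin1*, were described through a list of 22, of which 16 were tested. With Veh 6 of them were higher and 3 lower in steatotic macrophages, against 16.4% and 14.3% of all genes tested, where 1 of the 3 was *Plg*, which passed the filter only through 1 normal library with CC. CC raised 4 and lowered 1 in normal macrophages (6.27% and 5.54% of all genes) and likewise 4 and 1 in steatotic macrophages (12.0% and 10.9%), and with CC 6 were higher and 2, again with *Plg*, lower in steatotic macrophages (15.9% and 12.9%). The responses differed for 4 (1.95% and 1.27% of all genes were called larger and smaller), all larger in steatotic macrophages, and for 0 in the other direction by edgeR, at an unadjusted p under 0.05 or by DESeq2. *Plau* (urokinase) and *Plaur* (its receptor) start the plasmin cascade that activates proenzymes. *Plau* stood at 318.5 and 318.6 CPM in normal libraries with Veh, 579.8 and 559.7 CPM with CC, 207.2 and 193.9 CPM in steatotic libraries with Veh, and 550.3 and 505.2 CPM with CC, and *Plaur* at 128.5 and 117.2, 236.1 and 228.8, 61.6 and 57.5, and 191.9 and 175.1 CPM. Both were lowest in steatotic macrophages with Veh, as *Mmp12* and *Mmp9* were. CC raised *Plau* by 0.88 (edgeR adjusted p = 9.4e-05) and 1.41 (3.2e-06) and *Plaur* by 0.96 (0.000154) and 1.64 (4.9e-06) on the log2 scale in normal and steatotic macrophages, with differences of 0.54 (0.0109) and 0.68 (0.0106).

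*Serpinb2*, an inhibitor of urokinase, stood at 28.9 and 31.2 CPM in normal libraries with Veh, 46.1 and 36.2 CPM with CC, 35.8 and 36.5 CPM in steatotic libraries with Veh, and 161.4 and 177.1 CPM with CC. Only the steatotic libraries with CC stood far apart, and the responses differed by 1.75 on the log2 scale (edgeR adjusted p = 0.0035). *Thbs1* (thrombospondin 1, which binds MMPs and other matrix proteins) stood at 22.7 and 25.97, 30.8 and 29.5, 214.8 and 202.3, and 498.1 and 470.1 CPM in the same order. It was higher in steatotic macrophages by 3.14 with Veh (edgeR adjusted p = 4e-07) and 4.03 with CC (1.5e-07), and its response was larger by 0.89 (0.0053). *Lcn2*, whose protein binds MMP9, was higher in steatotic macrophages with Veh by 1.99 on the log2 scale (edgeR adjusted p = 0.000489). *Emilin1*, a glycoprotein of elastic fibres, stood at 2.79 and 3.56 CPM in normal libraries with Veh, 1.23 and 1.77 CPM with CC, 10.3 and 9.20 CPM in steatotic libraries with Veh, and 5.46 and 6.47 CPM with CC. The 1 gene of the list called lower with CC was *Emilin1* in each. Its log2 fold change was -1.04 in normal (edgeR adjusted p = 0.0223) and -0.69 in steatotic macrophages (edgeR adjusted p = 0.0496). The normal call was lost with the 4 libraries of the comparison alone (edgeR adjusted p = 0.0654). It was also lost without normal library 2 with Veh (log2 fold change -0.85) and without normal library 1 with CC (-0.80). The steatotic call was lost without either steatotic library with Veh (0.196 and 0.108), either steatotic library with CC (0.218 and 0.0912) and either normal library with Veh (0.0526 and 0.0530), with all alternatives from 0.0207. *Plg*, the liver-made plasminogen, was at 0 counts in all 4 steatotic libraries and at most 0.641 CPM in a normal one.

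The related ADAM and ADAMTS proteases, which shed membrane proteins or cut proteoglycans, were described in the same way. Of 17 genes 11 were tested. With Veh 6 were higher and 0 lower in steatotic macrophages (0 lower also at an unadjusted edgeR p under 0.05 and by DESeq2), against 16.4% and 14.3% of all genes tested. The 4 with the largest values were *Adamts9* (2.47 on the log2 scale, edgeR adjusted p = 0.0012), *Adam19* (2.17, 0.0011), *Adam15* (1.72, 4.1e-05) and *Adam8* (1.40, 1.4e-06). CC raised 1 and lowered 1 in normal macrophages (6.27% and 5.54% of all genes), and raised 1 and lowered 3 in steatotic macrophages (12.0% and 10.9%), so that the shares raised were near those of all genes. The gene raised in both was *Adam8*, by 0.54 (edgeR adjusted p = 0.000404) and 0.43 (0.000495), and *Adam10* fell in both, by -0.42 (0.0015) and -0.40 (0.000862). With CC in both, 5 were higher and 1 lower in steatotic macrophages (15.9% and 12.9% of all genes). The difference between responses, called for 1.95% and 1.27% of all genes, passed the edgeR test for 0 of the 11, a count near what those shares give, while 2 had an unadjusted p under 0.05 and DESeq2 called 1, each with the smaller value in steatotic macrophages.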

How the data were processed

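Poly(A) RNA of hepatic macrophages was sequenced in 8 libraries from a directional kit. The authors used fastp for trimming, HISAT2 for alignment against mm10 and StringTie for quantification (versions not given in the sources used here). The estimated counts (also called expected counts) that the authors deposited cover 55401 genes, in whole numbers without normalization. Multiples of 4 were over-represented at low counts (35.0% to 36.5% of values from 1 to 20), which points to about 4 counts per fragment, so 3 fragments correspond to 0.161 to 0.205 CPM, for counting error only.

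The 10 genes and the gene lists were chosen with earlier results of these data known. The 15202 genes that reached 0.5 CPM in any library were fitted with edgeR 4.0.16 in R 4.3.3 (TMM, glmQLFit with robust estimation, glmQLFTest, 4 group means, all 8 libraries), with Benjamini-Hochberg adjustment over all genes tested and a threshold of 0.05. SEs and 95% intervals came from the quasi-likelihood F statistic. CPM were computed on total counts, and levels per kb used the union of exons in GENCODE for GRCm38. In each other list, genes were named from the up to 4 called genes of largest log2 fold change per comparison, not all of which are printed, and the 2 genes most like each of 4 members were those of highest Pearson's r of log2 CPM. *Mmp3*, *Mmp7*, *Dcn*, *Csf3r*, other markers and *Emilin1* with CC in steatotic macrophages were named outside this rule. Promoters were RefSeq's. DESeq2 1.42.0, other scalings, filters and prior counts, counts divided by 4, a block for the replicate number, fits on only the 4 libraries compared and leaving out each library were alternatives. The edgeR and DESeq2 fits were tested on simulated data. Figures were drawn with matplotlib 3.10.9.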

Additional observations from a re-analysis of the deposited data

Results flagged for a closer look

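The response to CC differed between normal and steatotic macrophages for 5 of the 10 genes by the edgeR test of the difference itself. On the log2 scale the difference (steatotic minus normal) was 0.67 for *Mmp8*, 1.70 for *Mmp12*, 0.52 for *Mmp13*, 0.43 for *Mmp14* and -0.57 for *Mmp19*. The same test was passed by *Mmp10* (2.74) and, among the regulators of MMP activity, by *Plau* (0.54), *Plaur* (0.68), *Serpinb2* (1.75) and *Thbs1* (0.89). Groups of 2 libraries are too small for a test of outlying samples.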

How the results depend on the processing

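There were 17 alternatives, of which 16 applied to the difference between responses, as fits on only the 4 libraries compared cannot give it. Over those that applied, 40 of the 50 results of the 10 genes (each gene in each comparison) kept their direction and their side of the threshold in every one. Of 840 values, 819 did so, 12 lost the call, 1 gained it and 8 changed sign. The 8 were all in results that had not passed the test and came from leaving out 1 library. Over the libraries left out, the log2 fold change with CC ranged from -0.53 to 0.59 for *Timp1* in normal macrophages (-0.20 without normal library 1 with Veh), and in steatotic macrophages from -0.15 to 0.88 for *Mmp2*, from -0.11 to 0.21 for *Timp3* (-0.011 without steatotic library 2 with Veh) and from -0.0010 to 0.19 for *Mmp19*. The difference between responses ranged from -0.78 to 0.33 for *Timp1* and from -0.32 to 0.0016 for *Timp3*. In these fits the lone library of a group is assumed to vary like the others. The 12 lost calls were of *Mmp9* and *Mmp19*, 11 on leaving out 1 library and 1 under the replicate block.

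Leaving out each library left 8 of the 10 genes called with Veh, 7 with CC in normal, 6 with CC in steatotic, 7 to 9 between the livers with CC and 4 to 5 for the difference. Over all genes, calls with CC in normal macrophages were 1795, but 1083, 1020 and 1095 without normal library 1 with Veh and normal libraries 1 and 2 with CC. Calls of the difference were 490, but 737 with DESeq2 and 307, 314 and 298 without normal libraries 1 and 2 with CC and steatotic library 2 with Veh. Of 743 values of the other genes tested for this, 698 kept direction and call, 45 lost the call (mostly *Mmp10*, *Serpinb2* and *Emilin1*) and 0 changed sign.

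Libraries with the same replicate number did not deviate together (r from -0.0041 to 0.060 between groups), so the numbers were not shown to pair them. With the number as a replicate block, 8, 7, 6, 9 and 4 of the 10 genes were called, and the difference between responses of *Mmp19* had an edgeR adjusted p of 0.0571. Calls were also lost under the block for *Mmp10* between the livers with Veh (0.0505) and *Serpinb2* with CC in normal macrophages (0.0740). Low counts limit the precision for *Timp1* in normal macrophages, *Mmp2* and *Mmp10*.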
